A study of Mus musculus with 15 samples.

Results

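The transcripts described here had their highest mean level 1 h after lipopolysaccharide (LPS) and had lost at least 50% of it by 4 h. They numbered 437 of the 113193 transcripts in the deposited tables. All were measured in chromatin-associated RNA of macrophages that were grown from the bone marrow of C57BL/6 mice, in medium conditioned by L929 cells, and used at day 7 of differentiation. Cells were untreated or were given LPS, a bacterial cell wall component, at 10 ng/ml for 30 min, 1 h, 2 h or 4 h, with 3 libraries in each of the 5 groups. The series concerns nucleosome remodelling at regulatory elements of stimulated macrophages. Whether the 3 libraries of a group stem from different mice or cultures is not stated, and the p-values below cover their spread alone, which could be technical.

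The members were chosen from levels in TPM (a relative abundance, scaled for transcript length and depth), rescaled to 1000000 in each library after the single most abundant transcript of the series was removed. A member had its highest group mean at 1 h, a 1 h mean of at least 5 TPM and a 1 h mean at least 4 times the untreated mean with 1 TPM added to both. Its 3 libraries at 1 h all lay above its 3 untreated libraries, and its 4 h mean was at most 0.5 of its 1 h mean, again with 1 TPM added. The choice therefore used the levels at every time, and the shape of the profile is a description and not a finding. The lowest 1 h mean among the members was 5.25 TPM, and the nearest transcript that met every other condition had 4.95. For the 1 h fold these values were 4.001 and 3.998, and for the ratio of 4 h to 1 h they were 0.4997 and 0.501. The fold alone kept out 543 transcripts that met all other conditions, the loss by 4 h 134, the time of the peak 144, the separation of the libraries 151 and the level 30.

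LPS is sensed by Toll-like receptor 4, which signals through the adaptors MyD88 and TRIF to the NF-kB, MAP kinase and interferon regulatory factor pathways. The first genes to respond are transcribed without new protein synthesis and include transcription factors, cytokines, chemokines and inhibitors of the pathway itself. Many are active only briefly, because resynthesised NF-kB inhibitors, phosphatases and repressors act back on signalling and transcription. RNA that stays with chromatin is rich in transcripts still being made, so its level is meant to follow transcription more closely than that of total RNA, in which a stable message outlasts its synthesis. In bulk RNA, fewer cells with a transcript and less of it per cell cannot be told apart.

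The files name transcripts by Ensembl identifiers and do not pair them with gene names, and none of the 113193 identifiers matched the reference table of 49997 mouse genes. Members are therefore given by length and by rank of their 1 h mean, gene lists and macrophage markers could not be checked, and isoforms of 1 gene may be counted several times. The libraries held 7537521 to 11892599 estimated counts. The most abundant transcript took 9.66% to 41.2% of them, which is why the levels were rescaled without it. The lowest estimated count of a member among its 1 h libraries had a median of 101 over the members and was at least 10 for 365 of the 437, while 5 members had a 1 h library with less than 1 estimated count.

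Together the 437 transcripts took 0.724%, 0.552% and 0.558% of the rescaled TPM in untreated replicates 1, 2 and 3. They took 2.22%, 4.78% and 3.42% at 30 min, 6.09%, 5.40% and 4.68% at 1 h, 2.33%, 2.05% and 2.25% at 2 h, and 1.11%, 1.24% and 1.42% at 4 h. The means were 0.611% ± 0.0975 (SD, n = 3) in untreated cells, 3.47% ± 1.28, 5.39% ± 0.70, 2.21% ± 0.14 and 1.25% ± 0.16. The 3 libraries at 4 h all lay above the 3 untreated ones. The 30 min and 1 h libraries overlapped, since replicate 2 at 30 min exceeded replicate 3 at 1 h. The sum was spread over many members: the 10 with the highest 1 h means held 22.6% to 23.8% of it in the 1 h libraries.

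**Figure D1:**
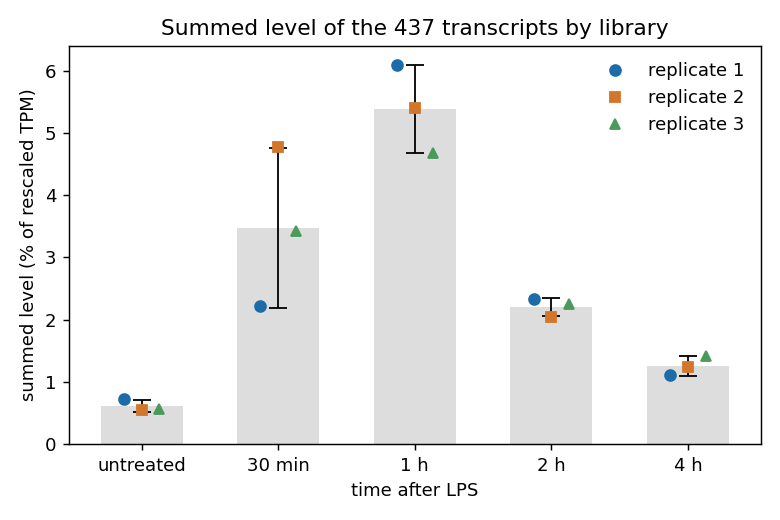
Summed level of the 437 transcripts, in percent of the rescaled TPM, at each time after LPS; points are libraries, bars the mean of 3 libraries and error bars the SD. The 1 h libraries lie between 4.68% and 6.09% and the untreated ones at or below 0.724%.

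Levels at 1 h ranged from 5.25 to 2801 TPM, with a median of 56.7. A 1 h mean of at least 100 TPM was found for 137 members, of 20 to under 100 TPM for 193 and under 20 TPM for 107. Of the 437, 255 had a fold at 1 h from 4 to under 8, 117 from 8 to under 16 and 65 of 16 or more. In all 3 untreated libraries 35 members were listed at 0, so their fold depends on the 1 TPM added. Replicates differed widely for single transcripts: the highest 1 h library exceeded the lowest at least 2-fold for 261 members and at least 4-fold for 74. The median of this ratio was 2.30 over the members and 2.59 over the 42026 transcripts with a group mean of at least 5 TPM.

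A few members at the ends of these measures, singled out after their values were seen, show the range. The member with the highest 1 h mean, 4004 nt long, stood at 822, 677 and 505 TPM in untreated replicates 1, 2 and 3, at 1472, 2579 and 2057 at 30 min, at 2448, 3718 and 2238 at 1 h, at 632, 1333 and 703 at 2 h and at 419, 674 and 304 at 4 h. It was already abundant before LPS, its 30 min and 1 h libraries overlapped, and its 4 h libraries overlapped the untreated ones. The member with the next highest mean, of 1639 nt, stood at 33.7, 13.5 and 58.1 TPM in untreated cells, at 917, 2316 and 2228 at 30 min, at 2536, 1667 and 2389 at 1 h, at 872, 665 and 991 at 2 h and at 408, 549 and 958 at 4 h. Here the untreated level was low and every LPS library lay above it, with a 4 h mean still 17.7 times the untreated mean after 1 TPM was added. The largest fold at 1 h, 153, belonged to the member ranked 29 by its 1 h mean (1871 nt). It stood at 2.39, 0.65 and 0.94 TPM in untreated cells, 243, 212 and 231 at 30 min, 584, 188 and 290 at 1 h, 67.04, 38.6 and 161 at 2 h and 6.32, 4.59 and 38.2 at 4 h. Its 30 min libraries were close to each other and lay inside the range of the 1 h libraries, so that the peak at 1 h rested on replicates 1 and 3.

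How early the level was reached varied among the members. The 30 min mean was under 25% of the 1 h mean in 64 members, 25% to under 50% in 123, 50% to under 75% in 158 and 75% or more in 92, with a median of 53.6%. The 30 min mean was at least 4 times the untreated mean, with 1 TPM added, in 211 of the 437. All 30 min libraries lay below all 1 h libraries in 132 members (30.2%, against 4.02% of the 42026 transcripts with a group mean of at least 5 TPM), a contrast the choice of members used. At the late end, among the 137 members with a 1 h mean of at least 100 TPM, the lowest 30 min level relative to 1 h was that of a 506 nt transcript, with 31.7, 24.95 and 15.8 TPM in untreated cells, 17.1, 17.0 and 58.5 at 30 min, 151, 181 and 189 at 1 h, 11.6, 21.4 and 23.5 at 2 h and 0, 7.59 and 7.16 at 4 h. Its 1 h libraries lay above all others, and its 2 h libraries overlapped the untreated ones. The highest 30 min level relative to 1 h, 97.2%, was that of a 2740 nt transcript at 124, 55.3 and 160 TPM at 30 min and 155, 57.5 and 136 TPM at 1 h. It stood at 28.6, 7.32 and 38.4 TPM in untreated cells, 15.1, 9.28 and 12.6 at 2 h and 4.49, 2.59 and 27.2 at 4 h, so its 30 min libraries overlapped those at 1 h and its 2 h libraries overlapped the untreated ones.

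**Figure D2:**
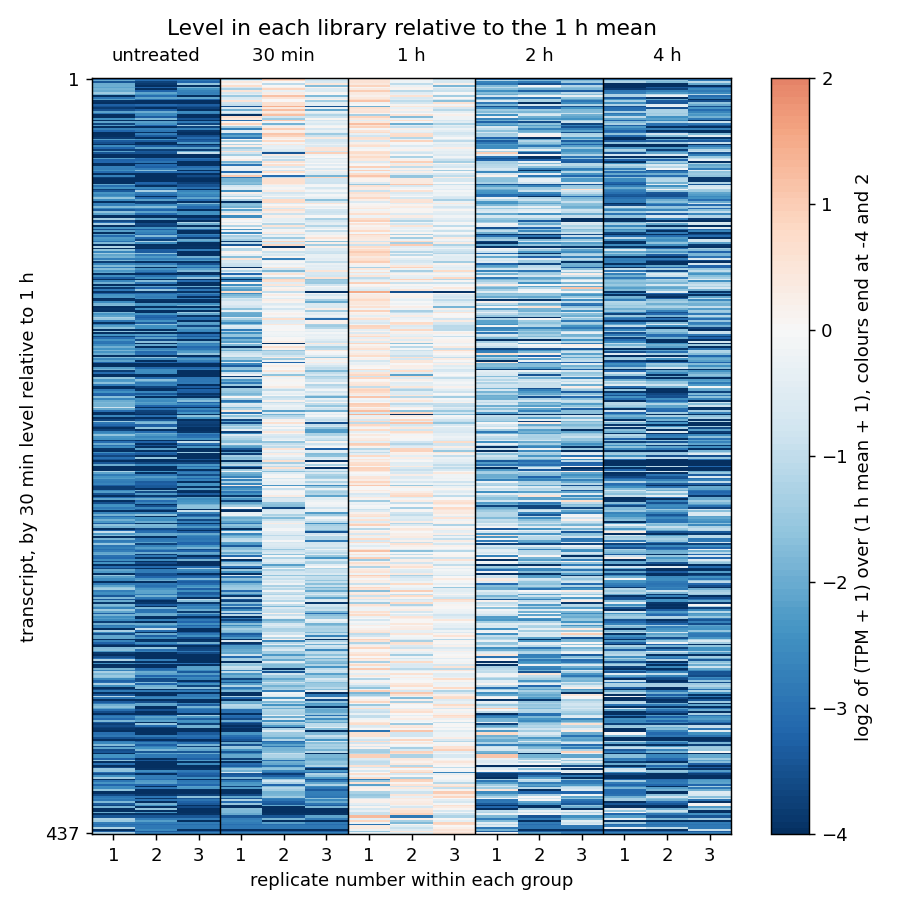
Level of each of the 437 transcripts (rows, ordered by the 30 min mean relative to the 1 h mean) in each of the 15 libraries (columns, replicates 1 to 3 within each time), as log2 of TPM + 1 over the 1 h mean + 1, with the colours ending at -4 and 2. At 30 min, replicate 1 is a deeper blue than replicates 2 and 3 over most rows.

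The decline was uneven too. The 2 h mean was under 25% of the 1 h mean in 133 members, 25% to under 50% in 175, 50% to under 75% in 98 and 75% or more in 31, with a median of 36.6%. All 2 h libraries lay below all 1 h libraries in 242 members (55.4%, against 9.77% of the background), again a contrast used in the choice. Members that were at 50% or more at 30 min and under 50% at 2 h were the most frequent, with 189 of 437. Those under 50% at both times numbered 119, those under 50% at 30 min and at 50% or more at 2 h 68, and those at 50% or more at both times 61. The broadest profile among the 137 abundant members was that of a 2535 nt transcript, with a 2 h mean at 98.6% of the 1 h mean. It stood at 31.6, 43.1 and 27.1 TPM in untreated cells, 152, 1180.3 and 487 at 30 min, 872, 899.6 and 779.8 at 1 h, 1020.4, 800.1 and 695 at 2 h and 303, 511 and 458 at 4 h. The 1 h and 2 h libraries overlapped, and all 4 h libraries lay below both.

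By 4 h the members were at a median of 18.9% of their 1 h mean and at 1.62 times the untreated mean with 1 TPM added. The 4 h mean was still at least 4 times the untreated mean in 78 members, 2 to under 4 times in 86, 1 to under 2 times in 149 and below it in 124, of which 43 were at 0.5 of it or less. All 4 h libraries lay above all untreated libraries in 111 members (25.4%, against 7.24% of the background) and below them in 30 (6.86%, against 30.5%). The rule used both group means, so these counts describe the members only. At one end, a 764 nt transcript stood at 6.40, 5.23 and 3.85 TPM in untreated cells, 290, 958 and 668 at 30 min, 967, 769 and 499 at 1 h, 578, 730.3 and 325 at 2 h and 426, 495 and 113 at 4 h. It kept 46.3% of its 1 h mean and was at 56.1 times the untreated mean with 1 TPM added, with every LPS library above the untreated ones. At the other end, a 1627 nt transcript stood at 31.1, 20.3 and 24.2 TPM in untreated cells, 57.7, 91.2 and 51.2 at 30 min, 220 (replicate 1), 93.7 and 63.6 at 1 h, 15.5, 14.4 and 13.3 at 2 h and 1.89, 3.11 and 3.59 at 4 h. Its 2 h and 4 h libraries all lay below its untreated libraries.

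The levels depend on the scale. In rescaled TPM the median of all 46185 tested transcripts other than the most abundant one was itself lower at 1 h than in untreated cells, by a log2 difference of -0.39, and lower at 4 h than at 1 h, by -0.23. In CPM (counts relative to library size) with TMM scaling these medians were -0.04 and 0.005. On that scale 352 of the tested transcripts met the conditions with the minimum level and the added 1 taken in CPM, and 261 of them were among the 437. The 389 members with a CPM value had a median log2 difference of -1.68 from 1 h to 4 h, against -2.21 for the 437 in rescaled TPM. Unit, filter and scaling differ together here, so their parts cannot be told apart.

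The numbers that the labels give the replicates set the time course apart at 30 min. Relative to the 1 h library of the same number, the median member stood at 24.5% at 30 min in replicate 1, 75.2% in replicate 2 and 62.5% in replicate 3. At 2 h the 3 medians were 34.3%, 34.2% and 37.5%, at 4 h 15.1%, 14.7% and 19.95%, and in untreated cells 10.9%, 8.91% and 9.20%. The numbers thus lay far apart at 30 min, where replicate 1 was the lowest, and close together at the other times. The 1 h library was the highest of its number for 383 members in replicate 1, 292 in replicate 2 and 312 in replicate 3. The 30 min library was the highest for 2, 135 and 88 members. For 185 members the peak was at 1 h in all 3 numbers, for 180 in 2 of them and for 72 in 1 only.

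**Figure D3:**
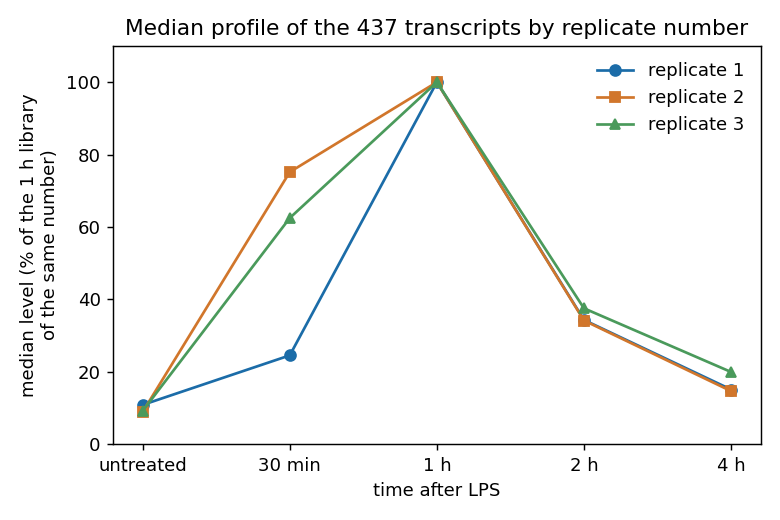
Median level of the 437 transcripts at each time, in percent of the 1 h library of the same replicate number, with 1 line for each number. At 30 min replicate 1 is at 24.5% and replicates 2 and 3 at 75.2% and 62.5%, while the lines meet at the other times.

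Replicate 1 at 30 min was also the lowest, relative to 1 h, for other transcripts raised by LPS. Transcripts with their peak at 30 min under otherwise equal conditions numbered 206, and their median at 30 min was 96.9%, 218% and 164% of the 1 h library in replicates 1, 2 and 3. Another 390 passed the same conditions on the 1 h level, fold and separation and kept more than 0.5 of the 1 h level at 4 h, and their medians were 31.2%, 70.4% and 51.8%. Over the background of 42026 transcripts the medians were 120%, 79.9% and 95.8%. Replicate 1 at 30 min also had the lowest share of the most abundant transcript, 9.66%, and a TMM factor of 1.36 against 0.722 and 0.965. These traits were not particular to 30 min. Replicate 1 had the lowest such share in each of the 5 groups, and the highest TMM factor in all groups but 2 h. The part that these differences have in the results was not tested. Without replicate 1 at 30 min the rule found 400 transcripts, 382 of them among the 437, and the median 30 min level of the members was 63.3% of 1 h. Without replicate 2 at 30 min it was 40.1%.

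Choosing transcripts on the replicates of 2 numbers and reading them in the number left out gives levels that the choice did not use. The rule found 569 transcripts without replicate 1, 615 without replicate 2 and 575 without replicate 3, of which 272, 351 and 375 were among the 437. In the libraries left out, 1 h lay above untreated for 77.0%, 81.8% and 86.8% of them, against 33.2%, 36.1% and 46.2% of all transcripts with a mean of at least 5 TPM at 1 h in the other libraries. The fold at 1 h was at least 4 for 42.2%, 55.4% and 60.3% (against 5.00%, 6.54% and 7.40%). The highest level was at 1 h for 54.1%, 42.3% and 52.0% (against 15.6%, 17.4% and 21.0%), and the 4 h level was at most 0.5 of that at 1 h for 58.3%, 69.3% and 67.3% (against 28.3%, 29.3% and 32.1%). These last traits occurred together in 30.6%, 27.2% and 32.3%, against 2.57%, 2.51% and 2.57%. The median 1 h fold in the libraries left out was 2.99, 4.44 and 5.14. In all 3 sets most transcripts lay above untreated at 1 h, but the peak at 1 h was met by 42.3% to 54.1% and the whole profile by 27.2% to 32.3%. With 1 library of each time left out, these shares have no test. The 3 sets share libraries in their choice and hold many transcripts outside the 437. The shares thus describe the sets chosen and not the 437.

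The rule did not set 2 h against 30 min directly, and this contrast describes whether the profiles lean to the early or to the late side of the peak. It is not independent of the choice, which holds both means below the 1 h mean and asks for a loss by 4 h. The lean and the calls below are therefore partly fixed by the choice and are given as a description. The 30 min mean was above the 2 h mean in 290 members and below it in 146. The median log2 ratio of 2 h to 30 min was -0.48 over the 437 members and -0.15 over the background of 42026 transcripts. All 2 h libraries lay below all 30 min libraries in 82 members (18.8%, against 10.8% of the background) and above them in 20 (4.58%, against 9.46%). Same-numbered libraries were lower at 2 h than at 30 min for 157 members in replicate 1, 332 in replicate 2 and 298 in replicate 3, so the lean was the other way in replicate 1. The background, whose share was not counted, also differed by number. Relative to 1 h, its medians at 30 min and 2 h were 120% and 94.5% in replicate 1. They were 79.9% and 91.4% in replicate 2, and 95.8% and 83.6% in replicate 3.

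In edgeR's quasi-likelihood test, fitted on all transcripts with an estimated count above the filter and adjusted by the Benjamini-Hochberg method over all 46186 tested, 6 members fell from 30 min to 2 h and none rose (adjusted p under 0.05). The 6 are 1.37% of the 437, against 0.431% of all transcripts tested, and the calls in the other direction made up 0.946% of all tested. The filter passed 389 of the 437 members. Before adjustment, 59 members were lower and 11 higher at p under 0.05, against 6.75% and 8.19% of all tested. These 70 of the 389 members tested compare with 6901 of all 46186. With the replicate number as a block, since same-numbered libraries deviate together, 24 members fell, among them the 6, and 2 rose, against 2.7% of all tested that fell and 4.36% that rose. DESeq2 called 39 lower and 3 higher, against 3.97% and 4.2% of all tested. With limma on log2(TPM + 1), 19 were called lower and 1 higher, against 0.673% and 1.45%. The DESeq2 and limma fits, and the fits below with a library left out, had no block. How far the blocked calls depend on single libraries was therefore not examined. The 6 calls depended on single libraries: none was left without any one of 30 min replicates 1, 2 and 3 or of 2 h replicates 1 and 2, and 1 was left without 4 h replicate 1 or 2, 2 without 1 h replicate 2 or untreated replicate 1 or 3, and 3 without 1 h replicate 3. Without 2 h replicate 3 there were 5 calls, of which 1 was among the 6, so no library of either time could be left out with the 6 calls kept. Without untreated replicate 2 there were 5 calls and without 4 h replicate 3 there were 8, each with 4 of the 6. Without 1 h replicate 1 all 6 were among 8 calls. The share of all tested transcripts called in the fits with a library left out was not taken.

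**Figure D4:**
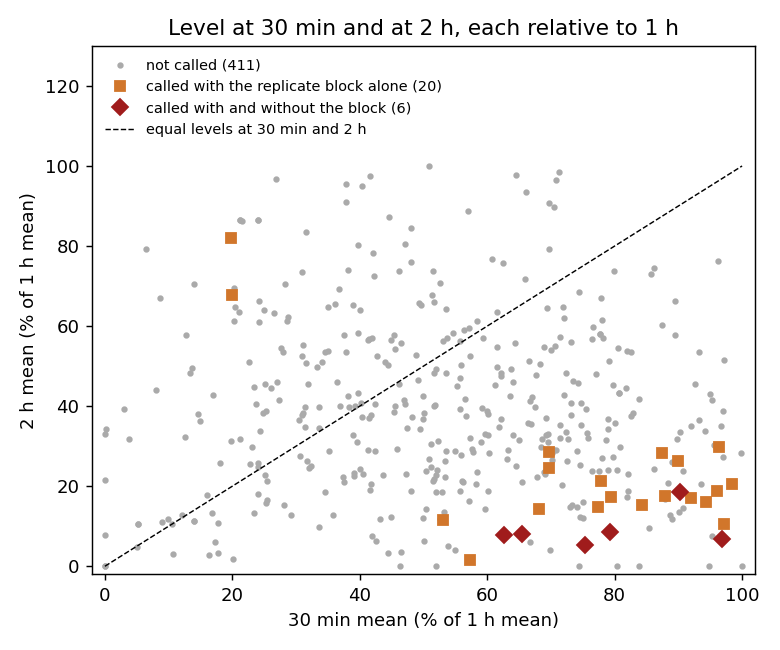
Mean level at 30 min (horizontal axis) and at 2 h (vertical axis) of each of the 437 transcripts, both in percent of the 1 h mean; the dashed line marks equal levels, and marks show members called at 2 h against 30 min. The 6 members called with and without the replicate block all lie below the line, and 2 of the 20 called with the block alone lie above it.

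The 6 members were 600 to 4804 nt long, and their log2 fold changes from 30 min to 2 h ran from -2.10 to -3.67. The smallest p among them belonged to ENSMUST00000229253.1 (3722 nt, rank 183). Its levels were 15.1, 7.41 and 10.1 TPM in untreated replicates 1, 2 and 3, 65.9, 38.6 and 58.5 at 30 min, 132, 29.0 and 55.6 at 1 h, 4.22, 2.00 and 5.18 at 2 h and 1.46, 1.18 and 5.05 at 4 h. The log2 fold change from 30 min to 2 h was -3.67 ± 0.65 (SE; edgeR adjusted p = 0.0239, and 0.00405 with the block). All 2 h libraries lay below all 30 min libraries and below all untreated ones, and in replicates 2 and 3 the 30 min level exceeded that at 1 h, so the 1 h peak of the mean rested on replicate 1.

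ENSMUST00000039926.9 (4804 nt, rank 357) had the next smallest p. It stood at 2.82, 0.662 and 1.41 TPM in untreated cells, 21.2, 11.5 and 9.09 at 30 min, 29.7, 6.23 and 7.23 at 1 h, 1.81, 0.599 and 0.554 at 2 h and 1.12, 1.38 and 1.15 at 4 h. The log2 fold change from 30 min to 2 h was -3.65 ± 0.75 (SE; edgeR adjusted p = 0.0386, and 0.00455 with the block). Its 2 h libraries were in or below the untreated range, and again replicate 1 alone was higher at 1 h than at 30 min.

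The 2 members with the smallest p without the block among those estimated higher at 2 h did not pass that test, and 1 of them passed with the block. ENSMUST00000113321.6 (1176 nt, rank 207) stood at 19.4, 10.1 and 7.71 TPM in untreated cells, 15.7, 9.13 and 11.4 at 30 min, 39.0, 88.2 and 55.96 at 1 h, 58.7, 48.8 and 42.7 at 2 h and 37.8, 19.8 and 12.5 at 4 h. The log2 fold change from 30 min to 2 h was 2.24 ± 0.51 (SE; edgeR adjusted p = 0.0532, but 0.0136 with the block). Its 30 min libraries lay in the untreated range, and its 1 h and 2 h libraries overlapped. ENSMUST00000199396.1 (2232 nt, rank 132) stood at 33.8, 9.15 and 21.6 TPM in untreated cells, 23.8, 12.6 and 30.0 at 30 min, 59.9, 137 and 128 at 1 h, 73.1, 97.8 and 39.0 at 2 h and 17.0, 10.7 and 24.3 at 4 h. Its log2 fold change was 1.89 ± 0.54 (SE; edgeR adjusted p = 0.108, and 0.0699 with the block). In both, no library at 30 min reached the lowest library at 1 h or at 2 h. The other member called higher with the block (5121 nt, rank 146) stood at 17.5, 25.5 and 9.98 TPM at 30 min. At 2 h it stood at 47.4, 75.8 and 56.8 TPM (edgeR adjusted p = 0.173, and 0.0282 with the block).

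**Figure D5:**
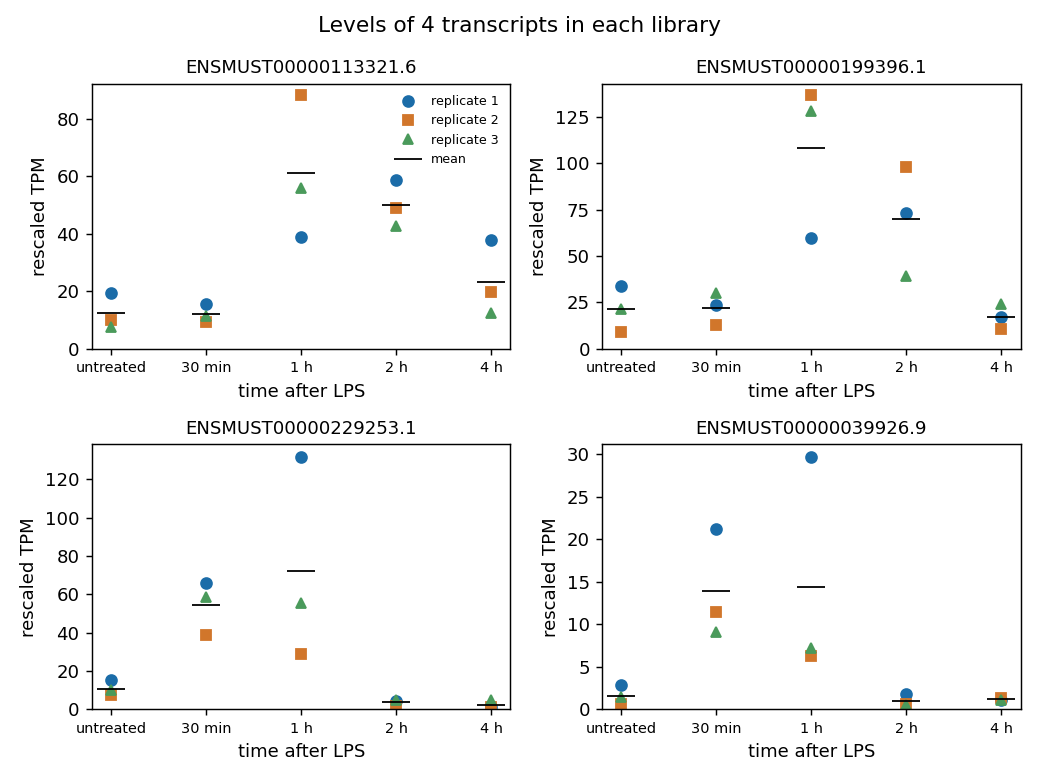
Rescaled TPM of 4 members in each library at each time after LPS, with points for libraries and a dash for the mean of 3. The upper pair is at the untreated level at 30 min and high at 1 h and 2 h; the lower pair is high at 30 min and 1 h and at or below the untreated level at 2 h.

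In the contrasts that the rule used, the calls are given as a description from which nothing is read. edgeR called 160 members higher at 1 h than in untreated cells, where 0.944% of all tested transcripts were called higher, and 277 with the block, where 2.93% were. It called 87 lower at 4 h than at 1 h (1.84% of all tested) and 142 with the block (4.97%), and 64 members passed in both contrasts without the block (0.223% of all tested). Against untreated cells, 49 were called higher at 30 min (0.351% of all tested), 73 at 2 h (1.97%) and 57 at 4 h (3.91%). With the block these were 112 (0.916%), 173 (6.42%) and 119 (8.87%). At 4 h 1 member was called lower than in untreated cells (2.33% of all tested), and 2 with the block (6.27%). These comparisons share their untreated or 1 h libraries.

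Single libraries moved these counts too, in fits without the block. The share of all tested transcripts called was not taken in these fits, which had fewer libraries. A general change in calls thus cannot be told apart from one of the members, and nothing about the members is read from the counts. The 160 became 37, 16 and 37 without untreated replicate 1, 2 or 3 and 85 and 76 when 1 h replicate 1 or 2 was left out. The 87 became 50 when either of those was left out, and 35 and 42 for 4 h replicate 1 or 2. At 30 min the 49 became 5, 1 and 8 without untreated replicate 1, 2 or 3, 17 and 24 without 30 min replicate 2 or 3, and 30 without 1 h replicate 3 or 2 h replicate 2, but 104 without 30 min replicate 1. At 2 h the 73 became 25, 9 and 20 without untreated replicate 1, 2 or 3 and came to 26, 28 and 47 when 2 h replicate 1, 2 or 3 was dropped. At 4 h the 58 calls in both directions became 28, 19 and 21 without untreated replicate 1, 2 or 3 and 33 and 34 without 4 h replicate 1 or 2.

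Transcript length is the one feature of the members besides their levels that the files give. It entered the rule only through TPM, which is scaled for length. The members ran from 310 to 9223 nt with a median of 1284 nt, against 1392 nt over the background of 42026 transcripts. Under 1000 nt there were 197 members (45.1%, against 43.2% of the background), from 1000 to under 3000 nt 157 (35.9%, against 32.2%) and at 3000 nt or more 83 (19.0%, against 24.6%). The 30 min level relative to 1 h had medians of 51.6%, 57.3% and 53.7% in the 3 length classes, the 2 h level 33.7%, 35.7% and 44.5%, and the 4 h level 18.4%, 19.9% and 16.5%. Across the 437 members, Spearman's rho with length was 0.094 for the 30 min level and 0.096 for the 2 h level, both relative to 1 h. With the 1 h mean itself rho was 0.34 for the 30 min level relative to 1 h and 0.13 for the 2 h level. All members share the same 15 libraries and some share reads, so rho is given as a description. The length is that of the transcript in the deposited tables.

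Set beside the 206 transcripts with a 30 min peak and the 390 that were raised at 1 h and not halved by 4 h, the 437 lay between the others in the contrast of 2 h against 30 min. The median log2 ratio was -2.30, -0.48 and 0.91 in the 30 min peak, 1 h peak and lasting sets. In these sets 177, 389 and 367 transcripts were tested. Of all transcripts tested, edgeR called 0.431% lower and 0.946% higher, and 2.7% and 4.36% with the block. In the 3 sets it called 31, 6 and 0 lower and 0, 0 and 26 higher. With the block it called 69, 24 and 2 lower and 0, 2 and 73 higher. A peak at 30 min holds every 2 h mean below the 30 min mean, so the direction in that set was fixed by its choice. The highest log2 ratio in it was -0.15. The conditions of the lasting set and of the 437 also bear on the order, so these calls are a description only. The other 2 sets had median lengths of 1347 nt and 1470 nt. Their shares with a count of 0 in all untreated libraries were 8.74% and 6.15%, against 8.01% of the 437. Neither measure was tested against the 437.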

How the data were processed

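Chromatin-associated RNA of 15 libraries was analysed. Per the submitters' processing notes, kallisto 0.44.0 assigned reads to transcripts, with an annotation and build not given in the sources used here. Deposited by the authors were the estimated count and the TPM of each transcript. Per the labels, libraries were unstranded, so reads of antisense partners cannot be separated. The deposited estimated counts were rounded and tested with edgeR 4.0.16 in R 4.3.3 (quasi-likelihood, all 15 libraries, 1 term per group, TMM scaling, filterByExpr with a minimum count of 10 and a total of 15, Benjamini-Hochberg adjustment, threshold 0.05), checked on simulated counts. The SE is the log2 fold change over the root of F. Alternatives, all without a term for the replicate number, used DESeq2 1.42.0, limma 3.58.1, other scalings, no filter, 2 groups at a time, and each library left out. All 30 pairs of same-numbered libraries from different groups had correlated deviations from their group means (r from 0.22 to 0.48). The labels' numbers were therefore taken to pair the libraries, and blocked values are given. For 60 other pairs r was -0.31 to -0.005. Deviations within a group cancel out, so these negative values follow from the positive ones and add no support. The members, lists and rules were chosen with earlier results of these data known. The 4 identifiers are those with the smallest p in each direction from 30 min to 2 h in the fit without the block. The planned gene lists, promoter motifs and gene sums were not run, since identifiers are not paired with genes. Assignment uncertainty is not in the errors.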

Additional observations from a re-analysis of the deposited data

Results flagged for a closer look

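The effect of LPS on 6 of the 437 transcripts differed between 2 h and 30 min by the direct edgeR test of the 2 times, with lower levels at 2 h in all 6. The size of the difference ran from -2.10 to -3.67 on the log2 scale. Of all transcripts tested, 0.431% were called lower and 0.946% higher. With the replicate block 24 members were called lower and 2 higher, against 2.7% and 4.36% of all tested. The choice of the transcripts used the levels at both times, and none of the 6 calls was left without any one of the 30 min libraries or without 2 h replicate 1 or 2. The fits with a library left out had no block, and the share of all tested transcripts called in them was not taken.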

How the results depend on the processing

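The number of members was 256 with a pseudocount of 5 in the folds, and 352 to 486 under the other planned settings that kept all libraries. Without single replicates or single numbers it ran from 400 to 615. For 2 h against 30 min, the 6 members called became 26 with the replicate block, 42 in DESeq2, 20 and 17 in limma on log2(TPM + 1) and log2(TPM + 0.1), 2 with library size alone, 1 without the filter and 0 in a fit of only the 2 groups. Without single libraries the count ran from 0 to 8. The calls over all tested transcripts moved with the setting too. In this contrast 0.431% of them were lower and 0.946% higher without the block. With the block these were 2.7% and 4.36%, and in DESeq2 3.97% and 4.2%. The member counts here describe the settings, and no result about the members is read from them. For the contrasts that follow, shares of all tested transcripts were taken only without and with the block. A general change in calls under the other settings thus cannot be told apart from one of the members. For 1 h against untreated cells, 160 became 277 with the block, 331 in DESeq2, 241 in limma on log2(TPM + 1), 96 in a fit of only the 2 groups and 86 with library size alone, and 16 to 195 without single libraries. For 4 h against 1 h, 87 became 142 with the block, 156 in DESeq2, 171 and 139 in limma with 1 and 0.1 TPM added, 0 with only the 2 groups, and 35 to 97 without single libraries. For 30 min against untreated cells, 49 became 112 with the block, 209 in DESeq2, 18 with library size alone, 0 with only the 2 groups, and 1 to 104 without single libraries. For 2 h against untreated cells, 73 became 173 with the block, 191 in DESeq2, 35 with library size alone, and 9 to 101 without single libraries. For 4 h against untreated cells, 58 became 121 with the block, 123 in DESeq2, 31 with library size alone, 31 with only the 2 groups, and 19 to 75 without single libraries. The block is the fit that the pairing of the numbers calls for. All other settings, and the fits without single libraries, had no block. The median 30 min level of the members, 53.6% of 1 h, was 40.1% to 63.3% without single libraries, and the median 2 h level, 36.6%, was 40.3% in CPM with TMM scaling and 31.7% to 39.1% without single libraries. The 4 named transcripts kept their direction under every setting run. The causes of these shifts were not tested. The fits of 2 groups and those without a library had fewer samples, and the number of transcripts passing the filter also differed in them. Counts of transcripts summed per gene were not run. Depth limits the low members most, since 72 of the 437 had a 1 h library with under 10 estimated counts.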
